A study of Mus musculus with 48 samples.

Results

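This section describes 135 genes of 22745 that rose for a short time when XO and XY mouse embryonic stem cells left the naive state, and it follows them into XX cells. The members were chosen by measured values, on XO and XY arrays alone. Each gene was set against the mean of its line's 0 h arrays. Its early mean, over 12, 18 and 24 h in XO and over 16 and 24 h in XY, had to lie at least 0.8 log2 units higher in both lines. Its late mean, over 66, 72 and 84 h in XO and over 72 and 84 h in XY, had to lie under 0.4 in both. XX arrays had no part in the choice.

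The 47 cell arrays were 18 of XX, 19 of XO and 10 of XY cells, taken between 0 and 84 h. The XX and XO lines are both called Pgk12.1 and the XY line is E14, so in XY the line and the sex chromosomes cannot be told apart. XX and XO are also a single line each, and the labels do not say how they are related. Between them, too, line and sex chromosomes cannot be told apart. Cells of every group had been adapted to N2B27 medium with an inhibitor of Gsk3, an inhibitor of Mek1 and LIF, which was their state at 0 h. They were then put on fibronectin in N2B27 with Activin A and basic Fgf. An array of reference RNA belongs to no group and stays out of all comparisons. Replicate letters A and B exist at 0 h in the 3 lines and at 36 h in XX and XO, and each of the other 37 conditions is a single array. Whether arrays of a line came from separate cultures is not in the labels, so p-values measure only the spread between these arrays, which may be technical.

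Embryonic stem cells held with both inhibitors and LIF resemble the naive epiblast before implantation. Once the inhibitors are withdrawn, Mek-Erk signalling resumes, naive factors decline, and cells pass through an intermediate, formative phase before they reach the primed state of epiblast stem cells, which Activin and Fgf maintain. Naive XX cells have both X chromosomes active, and X inactivation sets in as they differentiate, whereas XO and XY cells carry a single X throughout. The files pair none of the Ensembl identifiers with a gene name, so the members are described by their courses, and neither their functions nor the identity of the cells could be checked against known genes.

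Some arrays stood apart in their spread of values. The interquartile range over genes was narrowest in XO at 60 h (2.77 log2 units) and XO at 52 h (2.81), followed by XY at 32 h (2.86), and widest in XY at 16 h (3.44). Array medians lay between 6.80 and 7.10. The main counts and means that rest on the XO arrays of 52 to 60 h are therefore also given after quantile normalization, which gives every array the same distribution.

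The values that chose the members are given first, as a description. The early change had a median of 1.21 log2 units in XO (range 0.80 to 3.25) and of 1.25 in XY (0.81 to 3.69), against all-gene medians of 0.053 and 0.034. The late change had a median of -0.28 in XO and -0.32 in XY. Although the rule set only an upper bound, 35 members ended at least 0.8 below their start in XO, 38 did so in XY, and 21 did so in both. Over all genes the shares at least 0.8 below were 5.64% in XO and 10.2% in XY. The share in both lines was not computed over all genes. The upper bound of the rule by itself favours low late values among the members. The 3 members nearest to the early threshold had a smaller early change of 0.801, 0.807 and 0.807, and the 3 genes just below it had 0.791, 0.794 and 0.794. The larger late change was 0.368, 0.385 and 0.394 in the 3 members just inside the late threshold, and 0.414, 0.415 and 0.421 in the 3 genes just outside. In level, the median member was at 7.84 in XO and 7.82 in XY during 12 to 24 h, against 6.27 in XO and 6.29 in XY at 0 h, where the median of all genes was 6.86 and 6.82. At 0 h, 56 of 135 members lay above the all-gene median in XO and 56 in XY. In 124 members at least 1 cell array lay above 6.96, the median of all cell values.

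The question for XX was whether these genes rise there too. The mean change of the 135 members in XX was 0.61 log2 units at 6 h, 0.92 at 12 h, 1.08 at 18 h and 1.32 at 24 h, and on the 24 h array all 135 members were above their start. Mean change over all genes stayed between -0.036 and 0.0099 on these 4 arrays. In level, the members averaged 7.89 in XX over 12 to 24 h, against 6.78 at 0 h. Over that window 132 of 135 members were above their start, where the median change of all genes was 0.0096. The 0.8 threshold of the rule was met by 84 members, against 3.15% of all genes. In these bulk samples, more cells with an RNA and more of it per cell cannot be told apart, and the same holds for a fall.

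Tested across all genes, 81 members rose in XX at 12 to 24 h (limma, adjusted p under 0.05), against 4.32% of all genes called higher. No member was called lower, against 1977 of all 22745 genes, and 0 were lower at an unadjusted p under 0.05. The median member changed by 0.98, with a median SE of 0.27, and the range ran between -0.38 and 3.65. The rise in XX was smaller than in XO for most members: XX exceeded XO in 41 of 135 and exceeded XY in 43 of 135. The genes were chosen for high values in XO and XY, and these differences were not tested. The same counts were not made over all genes. Across the 135 members, the early change in XX correlated with that in XO at r = 0.48 (rho = 0.45) and with that in XY at r = 0.43 (rho = 0.31), as a description over genes that share their arrays. The baseline matters for the size: at 0 h the members averaged 0.21 higher in XX A than in XX B, against 0.015 for all genes, and the mean early change was 1.00 from XX A and 1.21 from XX B.

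**Figure D1:**
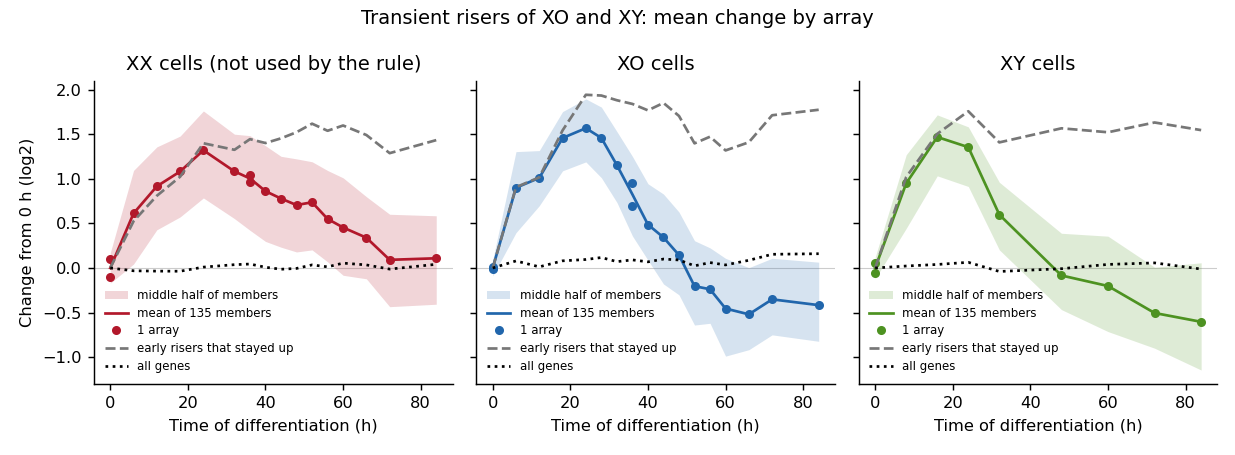
Mean change from 0 h (log2, vertical axis) of the 135 members against time (h) in XX, XO and XY cells, with points for single arrays, shading for the middle 50% of members, a dashed line for the 500 early risers that did not return, and a dotted line for all genes. The members peak at 24 h in XX and XO and at 16 h in XY, and the XX mean is still above 0 at 60 h, where the XO and XY means are below 0.

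At the first sampled time the rise was already under way. At 6 h, 44 members were at least 0.8 above their start in XX cells, against 72 in XO cells, and 75 had reached this in XY cells at 8 h. Over all genes the shares were 3.63% in XX, 4.65% in XO and 4.96% in XY. The XO 6 h and XY 8 h arrays played no part in the choice, although their 0 h baselines did. The hour of the highest level in XX was 6 h for 12 members, 12 or 18 h for 27, 24 h for 47, 28 to 36 h for 24, 40 to 60 h for 24 and 66 h or later for 1. In XO, 94 members peaked by 24 h, 40 at 28 to 36 h and 1 later. In XY, 124 peaked by 24 h, 7 at 32 h and 4 later. The median hour of the peak was 24 h for XX, and also for XO, while XY, sampled at fewer times, gave 16 h. A peak at 40 h or later was found for 25 members in XX, 1 in XO and 4 in XY. The rule held XO and XY high early and low late, so early peaks in these lines are partly built in. Peak hours were not computed over all genes.

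The middle of the XX course, which includes both replicate arrays of 36 h, kept the members high. Their mean change was 1.08 at 32 h and 0.97 and 1.04 on the 36 h arrays. In XX at 28 to 36 h, 75 members were higher than at 0 h (limma, adjusted p under 0.05), against 8.1% of all genes. None was called lower, against 2004 of all 22745 genes, although 2 were lower at an unadjusted p under 0.05. In fits of XX alone, with splines or without 36 h B, 1 member was called lower. Of the 75 members, 59 had also risen at 12 to 24 h and 16 had not been called there. Both tests use the same 0 h arrays. A total of 38 members were called in neither window. Joint counts of both windows were not computed over all genes.

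**Figure D2:**
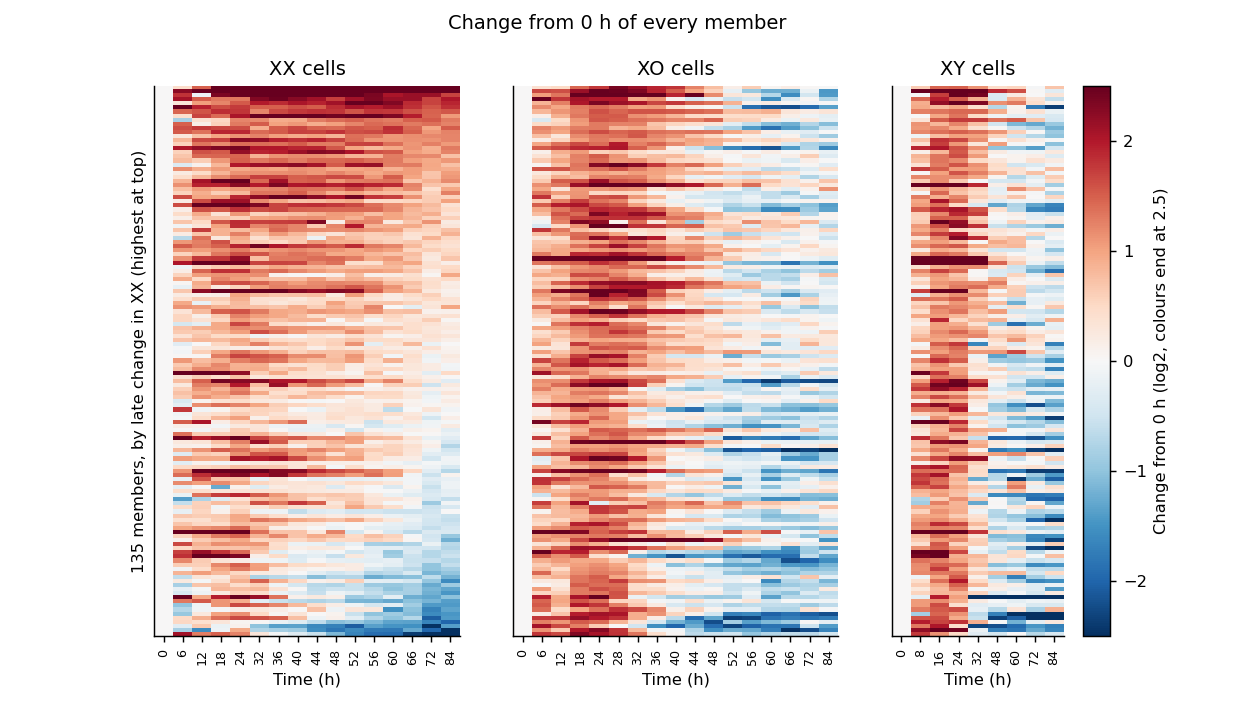
Change from 0 h (log2, colour) of each of the 135 members (rows, ordered by their late change in XX, highest at the top) at each time (columns) in XX, XO and XY cells, with replicate arrays averaged. At 52 to 60 h, 48 members are at least 0.8 above their start in XX, against 5 in XO and 12 in XY, where the shares over all genes are 6.79% in XX, 7.44% in XO and 10.6% in XY.

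The next question was whether the rise is passing in XX as well. After 36 h the XX mean was 0.86 at 40 h, 0.78 at 44 h, 0.71 at 48 h, 0.74 at 52 h, 0.55 at 56 h and 0.45 at 60 h. It stood at 0.34, 0.092 and 0.11 at 66, 72 and 84 h. In level, the members averaged 6.96 in XX at 66 to 84 h, against 7.89 at 12 to 24 h. Between these windows 76 members fell (limma, adjusted p under 0.05), against 7.04% of all genes called lower, and 1 member was called higher, against 11.6% of all genes. The median difference was -0.78, with a median SE of 0.24, against 0.0036 for all genes.

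Both tests use the XX arrays of 12 to 24 h, so they are not independent of each other. With that in mind, 56 members rose early and fell again in XX, 25 rose with no fall called, 20 fell with no rise called, and 34 were called in neither. These joint counts were not computed over all genes. The thresholds of the rule, applied to the XX means, were met by 40 members, against 0.822% of all genes. Another 44 passed the early threshold in XX but stayed at least 0.4 above their start, 43 stayed under both thresholds, and 8 were under 0.8 early and at least 0.4 late. No share over all genes was computed for these other groups.

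**Figure D3:**
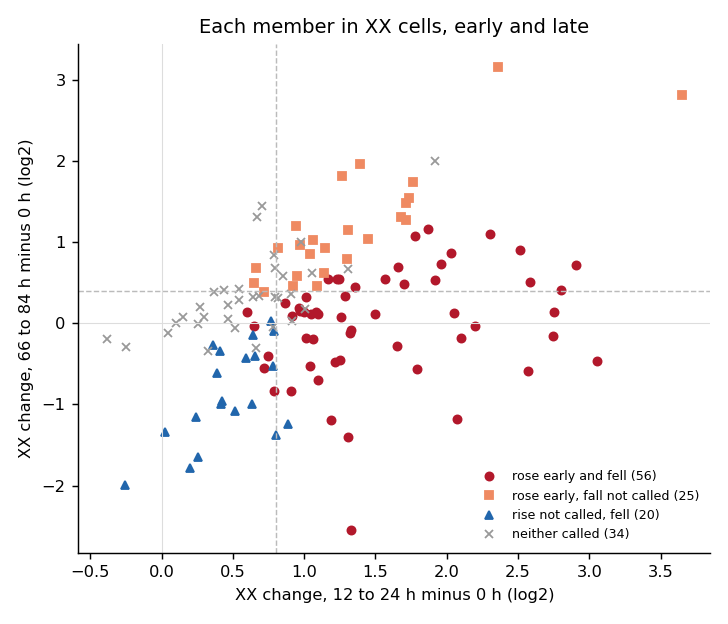
Change of each member in XX cells at 66 to 84 h (log2, vertical axis) against that at 12 to 24 h (log2, horizontal axis), both from 0 h, with symbols for the calls of the early rise and the later fall. Dashed lines mark 0.8 and 0.4 log2 units, and 56 members rose and fell while 25 rose with no fall called. Shares over all genes were not computed for these joint calls.

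Compared with their start, the members did not all return to 0 in XX. At 66 to 84 h, 29 members were higher than at 0 h (limma, adjusted p under 0.05), against 9.71% of all genes, and 16 were lower, against 9.95% of all genes. The lower members are 11.9% of the 135, close to the background share. The count fell to 3 without XX A at 0 h, to 8 without the 72 h array and to 9 without the 84 h array. The median change was 0.15 and the range ran between -2.54 and 3.16. Of the 81 early risers, 27 were among those called higher at the end, a joint count that was not computed over all genes. The late change in XX lay above that of XO in 105 of 135 members and above that of XY in 103. The genes were chosen for low late values in XO and XY, and this was not tested either. These counts between lines were not made over all genes. The 21 members that ended at least 0.8 below their start in XO and XY had a median late change of -0.078 in XX, against 0.21 for the other 114, and 4 of them were called lower in XX.

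XO and XX parted between 40 and 60 h. The rule did not use the arrays of these hours, but it used the XO arrays of 0 h, from which the XO changes are counted, and it fixed XO before and after. XX cells had a mean change of 0.74, 0.55 and 0.45 at 52, 56 and 60 h. XO cells had -0.20, -0.24 and -0.46 at the same hours, after 0.49, 0.34 and 0.14 at 40, 44 and 48 h. At 52 to 60 h the XX values were all above 0 and the XO values all below it, so the lines did not overlap. In XY the single arrays gave 0.60 at 32 h, -0.084 at 48 h and -0.20 at 60 h. Quantile normalization left the 52 to 60 h means at 0.53 in XX and -0.37 in XO, and median centring left them at 0.52 for XX and -0.38 for XO. With either 0 h replicate alone as the baseline, the mean stayed between 0.47 and 0.69 in XX and between -0.31 and -0.29 in XO.

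Gene by gene, 94 of the 135 members had all 3 XX arrays of 52 to 60 h above all 3 XO arrays in change from 0 h, against 20.1% of all genes, and 6 had all XX arrays below all XO arrays, against 22.2% of all genes. For 35 members each XX array lay above its own start and each XO array below its own, against 4.31% of all genes. After quantile normalization these 3 counts were 94, 6 and 36. As a level, the members averaged 7.36 in XX at 52 to 60 h, where XO had 6.30, and all genes averaged 7.23 in XX against 7.14 in XO. At 0 h the members averaged 6.78 in XX against 6.60 in XO.

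Within XO, 116 members fell between 28 to 36 h and 52 to 60 h (limma, adjusted p under 0.05), against 17.0% of all genes called lower. None was called higher, against 2047 of all 22745 genes, and none was higher at an unadjusted p under 0.05. The median XO difference was -1.32, with a median SE of 0.23. Without the XO array of 28 h, an hour that XX lacks, 109 members fell and the median was -1.17. The rule fixed the XO level before and after these hours, so part of this fall is implied by it. Within XX, whose earlier window holds only 32 and 36 h, 17 members fell (limma, adjusted p under 0.05), against 1.1% of all genes. After quantile normalization the counts were 20 in XX, against 1.3% of all genes, and 115 in XO, against 13.2% of all genes. Before this normalization, none was called higher in XX, against 554 of all 22745 genes. At an unadjusted p under 0.05, 1 was higher and 49 were lower. The median XX difference was -0.38, with a median SE of 0.24. The XX count was 5 without the 32 h array, 6 without 60 h, 8 without 56 h and 10 without 36 h B, and splines called 49. The fall was smaller in XX than in XO for 117 of 135 members, a count that was not made over all genes. The difference between the lines was not tested, since XO served to choose the genes.

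**Figure D4:**
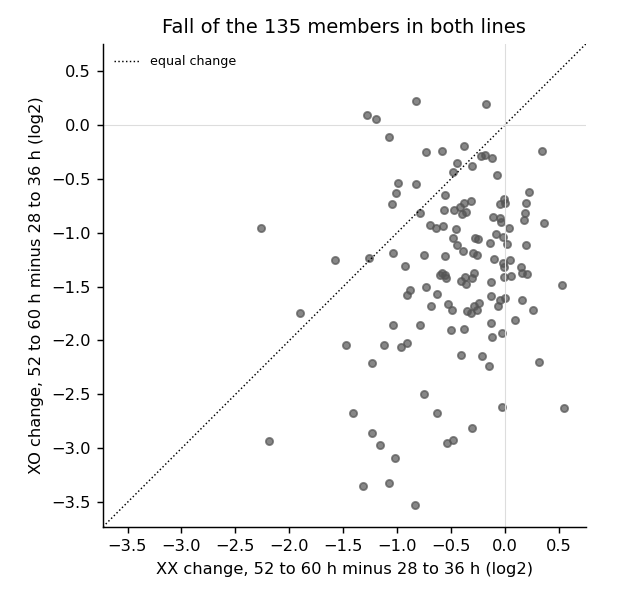
Difference between 52 to 60 h and 28 to 36 h (log2) of each of the 135 members in XX cells (horizontal axis) and in XO cells (vertical axis), with a dotted line of equal change. Points lie below the line for 117 members, whose values were lower in XO, and the medians are -0.38 in XX and -1.32 in XO. The same count was not made over all genes. XX has no array at 28 h, so its earlier window holds only 32 and 36 h.

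As a time, the mean of the members was back to 50% of its highest value after 53.6 h in XX cells, by straight lines between arrays. XO cells took 36.5 h and XY cells 30.6 h. The mean had peaked at 1.32 for XX, at 1.57 for XO and at 1.47 for XY. The rule used the arrays at the XO and XY peaks and held both lines under 0.4 late, so an earlier return there than in XX is partly built in. The XX crossing lies between the 52 and 56 h arrays, that of XO between 36 and 40 h, and that of XY between 24 and 32 h. No error was computed for these hours.

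The choice was then turned round, after seeing the data, so that the same thresholds were applied to XX and XY with XO left out. This gave 60 genes, of which 40 are among the 135. Over 12 to 24 h their mean change was 1.33 for XX cells, against 1.25 for XO cells. Over 52 to 60 h it was 0.24 for XX cells, against -0.40 for XO cells, and over 66 to 84 h it was -0.24 for XX cells, against -0.45 for XO cells. The XX mean was above the XO mean at 52 to 60 h under both choices, and this was not tested. The 40 shared genes also met the XO thresholds, so the choices are not independent. No mean was computed for the other genes alone. After quantile normalization the means of the 60 genes at 52 to 60 h were 0.20 for XX cells and -0.46 for XO cells.

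The early thresholds in XO and XY were met by 635 genes, and the 500 of these that are not members ended at least 0.4 above their start in XO or XY. In XX these 500 genes had a median change of 0.88 at 12 to 24 h, against 0.98 for the members. At 66 to 84 h the members had a median of 0.15 in XX, against 1.23 for the 500 genes. Between both windows 76 of 135 members and 68 of the 500 genes fell in XX (limma, adjusted p under 0.05). In the other direction, 1 member and 162 of the 500 rose. Over all genes 7.04% fell and 11.6% rose. XX arrays chose neither set. In XO, 116 of 135 members and 197 of the 500 genes were lower at 52 to 60 h than at 28 to 36 h. The share over all genes was 17.0%. The fall in XO in these hours was thus not limited to the members. After quantile normalization the XO counts were 115 of 135 and 172 of 500, against 13.2% of all genes.

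The members with the highest early change in XX were ENSMUSG00000028487 and ENSMUSG00000001025, and their later courses differed. They were picked for this change among the members called, so their early p-values are only a description. ENSMUSG00000028487 had 8.83, 10.10 and 10.70 log2 units in XX at 12, 18 and 24 h, against 6.38 and 6.07 at 0 h. The groups did not overlap, and the rise was 3.65 (SE 0.38, limma adjusted p = 2.89e-08). In XX it then stayed high, at 10.26, 10.26 and 10.29 at 40, 44 and 48 h and 9.22, 8.84 and 9.06 at 66, 72 and 84 h, and it ended 2.82 above its start (SE 0.38, limma adjusted p = 1.17e-06). The late window in XX differed from 12 to 24 h by -0.83, which did not pass (limma adjusted p = 0.0918). In XO it had 10.42, 10.97 and 11.34 at 12, 18 and 24 h, against 8.75 and 8.86 at 0 h, and it was at 8.60, 7.87 and 7.57 at 52, 56 and 60 h. Against 28 to 36 h, it changed in XO by -2.95 at 52 to 60 h (SE 0.32), and by -2.77 after quantile normalization. The rule fixed its XO level before and after these hours, so part of this fall is implied by the choice. XX cells began lower than XO cells at 0 h, and the curves crossed between 40 and 44 h.

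ENSMUSG00000001025 was highest at the first sampled time in the 3 lines. XX cells had 8.93 at 6 h, against 5.28 and 4.85 at 0 h. XO cells had 7.05 at 6 h, against 3.75 and 3.91 at 0 h, and XY cells had 9.40 at 8 h, against 5.04 and 4.16 at 0 h. In XX it was at 8.33, 8.13 and 7.91 at 12, 18 and 24 h and at 4.40, 4.70 and 4.68 at 66, 72 and 84 h. The early rise in XX was 3.05 (SE 0.40, limma adjusted p = 1.81e-06) and the fall to the late window -3.52 (SE 0.36, limma adjusted p = 2.20e-08). It ended -0.47 from its start, which did not pass (limma adjusted p = 0.505). By 32 h its level was down in each line, with 6.45 for XX cells, 5.64 for XO cells and 6.41 for XY cells. At 52, 56 and 60 h it went against the member means, with 5.32, 4.75 and 5.44 in XO and 4.62, 5.14 and 4.66 in XX. Its change from 0 h was then 1.34 in XO, the highest of all members, and -0.26 in XX. Between 28 to 36 h and 52 to 60 h it changed in XO by 0.052 (SE 0.34, limma adjusted p = 0.928). After quantile normalization this was -0.0055.

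The members with the lowest early change in XX were ENSMUSG00000081885 and ENSMUSG00000072834, and neither passed the test. They were picked as the lowest in this same contrast, so their early p-values are only a description. ENSMUSG00000081885 had 5.98, 4.75 and 6.12 in XX at 12, 18 and 24 h, against 5.67 and 6.33 at 0 h, a difference of -0.38 (SE 0.37, limma adjusted p = 0.598). All its XX arrays lay between 4.75 and 6.52, below the array medians, and the early arrays overlap those of 0 h. In XO it had 5.53, 5.94 and 6.70 at 12, 18 and 24 h, against 4.95 and 5.34 at 0 h, and its highest XY value was 7.23 at 16 h. ENSMUSG00000072834 had 4.69, 6.14 and 7.22 in XX at 12, 18 and 24 h, against 7.13 and 5.42 at 0 h, and the early arrays overlap those of 0 h (-0.25, SE 0.60, limma adjusted p = 0.862). Its 0 h replicates differ so widely that the early change in XX was -1.11 without XX B and 0.60 without XX A. It still fell in XX, to 4.99, 4.29 and 3.57 at 66, 72 and 84 h, by -1.74 against 12 to 24 h (SE 0.53, limma adjusted p = 0.0194). In XO it was at 3.04, 3.28 and 3.83 at those hours and in XY at 3.63 and 3.27 at 72 and 84 h, and it is one of the 21 members at least 0.8 below their start in both lines.

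**Figure D5:**
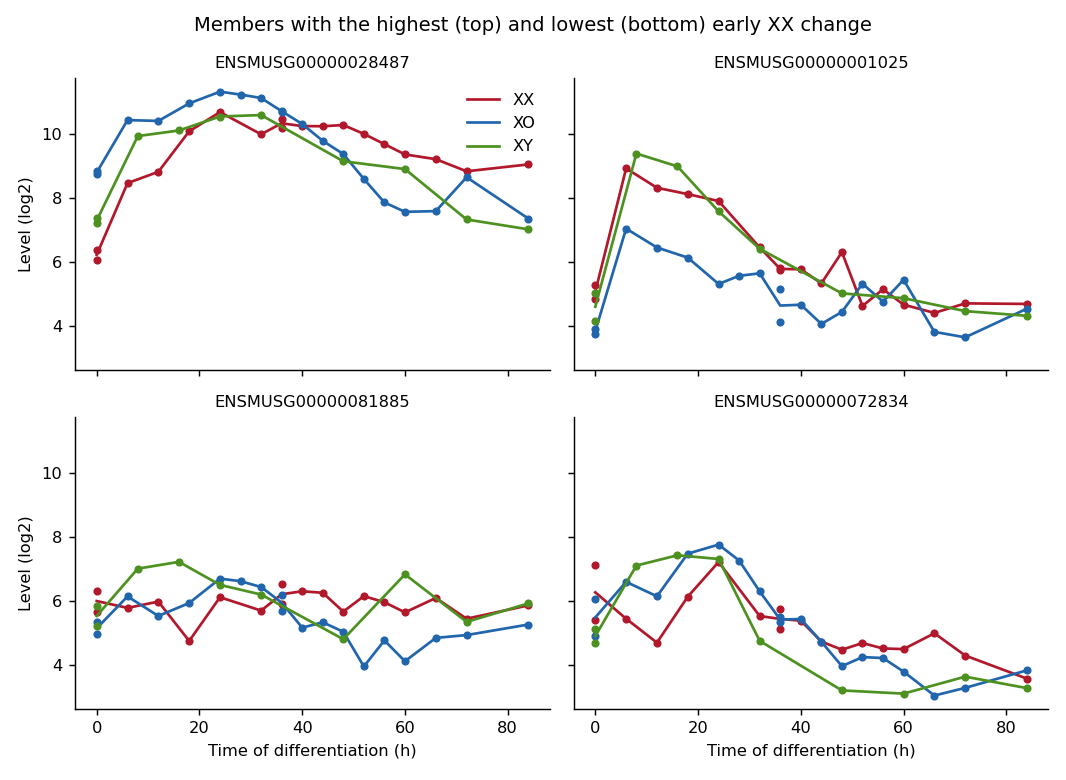
Level (log2, vertical axis) of the 4 named members against time (h, horizontal axis) in XX, XO and XY cells, with points for arrays and lines through the means. The upper pair rose most in XX at 12 to 24 h, by 3.65 and 3.05, and the lower pair gave -0.38 and -0.25 there.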

How the data were processed

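The authors' deposited table holds log2 expression values per Ensembl gene from Affymetrix Mouse Exon arrays. Per the submitters' processing notes, RMA and affy were used. RMA usually subtracts background, equalizes the arrays' distributions and combines probes. No version, probe annotation or build is stated in the sources used here. Arrays carry no read depth, so their number limits the precision.

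From these values, members were found by the rule, and means of 7 time windows per line were fitted to the 47 cell arrays with limma 3.58.1 in R 4.3.3 (26 residual and 4.00 prior degrees of freedom). Benjamini-Hochberg adjustment ran over all 22745 genes, with an adjusted p under 0.05 as the threshold for a call. A window pools single time points, so its spread includes change within the window. The 52 to 60 h contrast in XX and the rule applied to XX and XY were added after seeing the data. So was quantile normalization for the non-overlapping arrays, the 500 and 60 other genes and the named XO values. On simulated data with 22745 genes, known changes were planted in the XX contrast of 12 to 24 h against 0 h. It recovered 19% of 100 changes of 0.5 log2 units, 70% of changes of 1 and 97% of changes of 2, with 8 false calls. Only 100 genes of each size were changed there, with independent noise, whereas the data gave 983 genes called higher and 1977 lower. The adjustment therefore acts differently in the data, and these rates need not hold there.

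Members, lists and tests were chosen with earlier results of these data known. The gene tables at hand hold no Ensembl identifiers, so 0 of 22745 rows could be given a symbol. The gene lists, cell type markers, promoter motifs and sequences were therefore not used, and the rule for named genes came down to 4 identifiers: both members with the highest early change in XX among those called, and both with the lowest. Alternatives were median centring, quantile normalization, a filter on low genes, the replicate letter as a block, the tested line alone, natural splines (4 degrees of freedom, splines 4.3.3), other thresholds and leaving out single arrays.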

Additional observations from a re-analysis of the deposited data

Results flagged for a closer look

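The mean change of the 135 members from 0 h had opposite signs in XX and XO at 52, 56 and 60 h. Averaged over these hours it was 0.58 in XX, where all 3 arrays were above 0, and -0.30 in XO, where all 3 were below 0. All genes averaged 0.034 in XX and 0.040 in XO. The difference between the lines was not tested. The members were chosen in XO and XY, and the XO arrays of 52 and 60 h had the narrowest spread of values, at 2.81 and 2.77 log2 units. After quantile normalization the means were 0.53 in XX and -0.37 in XO.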

How the results depend on the processing

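Counts of called members mostly kept within 1.5 times of the values above. Over all alternatives, 102 counts did so and 11 did not. The exceptions without single arrays were the members lower in XX at 66 to 84 h than at 0 h, with 3 to 18 against 16, and those lower in XX at 52 to 60 h than at 28 to 36 h, with 5 to 16 against 17, a count that splines took to 49. The members numbered 237 with an early threshold of 0.6, 86 with 1.0 and 60 when the rule was applied to XX and XY. Median centring gave 144 members, of which 125 were shared, and quantile normalization gave 125, of which 113 were shared. Without single arrays they numbered 118 to 162. Early risers in XX numbered 54 to 82 without single arrays, the lowest without XX B at 0 h, and members that fell in XX from 12 to 24 h to 66 to 84 h numbered 65 to 78. The early XX values of the 4 named members kept their side of the threshold under every alternative tried, although the sign of the uncalled pair turned without single arrays (-1.11 to 0.60 and -0.71 to 0.051). Letters A and B share no stated culture or day, and their deviations correlated at -0.13 to 0.19 over 10 pairs of conditions, 4 of them below 0. With the letter as a replicate block, 74 members rose early in XX, 76 fell again, 19 fell at 52 to 60 h and 118 did so in XO. Each hour rests on 1 array outside 0 and 36 h, which limits all times given.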

Other observations

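In the commercial mouse reference RNA, the only array outside the 3 lines, 12 of the 135 members stood above their highest value on any of the 47 cell arrays (8.89%), against 11.9% of all genes.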
